A study of Mus musculus with 3 samples.

Results

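The NR4A and EGR families are transcription factors whose genes are switched on within the first hour of T cell receptor signalling. The 6 genes described here, Nr4a1, Nr4a2, Nr4a3, Egr1, Egr2 and Egr3, were chosen by name from the 32285 gene rows of the deposited matrices, and each had 1 row in both matrices. They were followed in CD4+ T cells sorted from the kidney and spleen of MRL/lpr mice, a strain with a defect in the death receptor Fas in which T cells accumulate and lupus nephritis develops. The mice called WT were Ezh2fl/fl, with loxP sites in both copies of Ezh2, the methyltransferase subunit of Polycomb repressive complex 2. The mice called KO were iCD4-Cre Ezh2fl/fl (CD4-Cre/ERT2 Ezh2fl/fl), which also carry a Cre recombinase that needs tamoxifen to act and is driven by the Cd4 promoter. The labels give 6 generations of backcrossing for these mice. Littermates of both genotypes received tamoxifen by gavage at 300 mg/kg on 3 days a week in alternate weeks. A preventative schedule started at 10 weeks of age and a therapeutic schedule at 14 weeks, both lasting to 24 weeks. The schedule of each single mouse is not given in the labels. Cells of 2 KO mice (KO1, KO2) and 3 WT mice (WT1, WT2, WT3) could be told apart by antibody tags, each in both organs, which gave 10 blocks of cells. Kidneys were dissociated with enzymes at 37 °C and spleens were mashed through a strainer, so organ and dissociation cannot be told apart in any comparison of kidney with spleen.

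In T cells, Egr1, Egr2 and Egr3 are induced by the Ras and MAP kinase branch and by calcineurin and NFAT. Egr2 and Egr3 then raise inhibitors of receptor signalling and are known for their part in T cell anergy. Nr4a1 (Nur77), Nr4a2 (Nurr1) and Nr4a3 (Nor1) are orphan nuclear receptors that follow calcium signals, MEF2 and cyclic AMP response element binding protein (CREB), and reporters of Nr4a1 and Nr4a3 are widely used to read receptor signalling. NR4A factors also restrain effector T cells and take part in T cell exhaustion and in regulatory T cell identity.

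All 6 genes matched the RefSeq gene table of GRCm38.p6. Promoter windows were counted for 4 of them (Nr4a1, Nr4a2, Nr4a3 and Egr2). Those of Egr1 and Egr3 were not counted, so Egr2 alone stands for the EGR genes here. The stretches below lie just before annotated transcript starts. The motifs marked in them were chosen after the organ difference described below was seen, and their part in it was not tested. Capitals mark the core of the cyclic AMP response element, CGTCA or its reverse complement TGACG, and the CArG box, the site of serum response factor, which was searched on both strands as CC, then 6 of A or T, then GG. Nr4a1 and Nr4a2 are given over the 250 bases before the start (chr15:101266596-101266845, plus strand, and chr2:57124004-57124253, minus strand). Nr4a3 is given over 30 bases from -238 to -209 (chr4:48045067-48045096, plus strand) and Egr2 over 30 bases from -80 to -51 (chr10:67537789-67537818, plus strand), counted from the start.
Nr4a1: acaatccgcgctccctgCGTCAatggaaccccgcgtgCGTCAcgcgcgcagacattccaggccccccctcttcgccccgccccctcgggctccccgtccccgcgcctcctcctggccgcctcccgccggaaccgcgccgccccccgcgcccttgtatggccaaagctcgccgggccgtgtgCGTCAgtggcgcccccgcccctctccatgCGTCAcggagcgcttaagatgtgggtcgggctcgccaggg
Nr4a2: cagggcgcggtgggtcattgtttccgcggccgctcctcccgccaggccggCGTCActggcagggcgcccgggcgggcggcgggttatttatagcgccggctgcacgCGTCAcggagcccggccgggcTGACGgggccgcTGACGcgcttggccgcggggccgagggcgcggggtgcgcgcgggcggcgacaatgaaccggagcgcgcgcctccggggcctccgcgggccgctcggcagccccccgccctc
Nr4a3: aggagggTGACGtagcgtcccatgtCGTCA
Egr2: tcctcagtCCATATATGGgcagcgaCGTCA

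Each NR4A gene held 4 such cores within the 250 bases before its start. At least 1 was found in 17.8% of the 32851 promoter windows of that length, at least 2 in 3.90%, at least 3 in 0.688% and at least 4 in 0.137% (45 windows). In Nr4a1 they began at -233, -213, -69 and -40, in Nr4a2 at -200, -144, -123 and -111, and in Nr4a3 at -231, -213, -205 and -147. Egr2 has several annotated starts, and the window before that at 67537869 held 2 cores, at -111 and -55, and 1 CArG box at -72, a motif of 1.47% of windows. The Egr2 start at 67535499 held none of the motifs searched, and that at 67537566 held 0 cores, 3 NFAT cores and 1 CArG box. No CArG box was found before the NR4A starts. The NFAT core, GGAAA or TTTCC, was found in 55.6% of windows and stood once before Nr4a2 and once before that Egr2 start. Such matches are letters in a window and do not show binding. The shares were taken over all windows and not over windows of like base content.

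The sums used for testing held 12943 cells, from 202 cells and 818499 UMIs (unique molecular identifiers, each 1 captured transcript) in kidney KO2 to 2264 cells and 9541847 UMIs in spleen WT1. Cell barcode sequences shared between the 10 blocks numbered 0. All 7 CD4 T cell markers were detected, with summed levels of 3078 to 4548 CPM in every block. The B cell markers summed to 382.6 to 494.7 CPM in kidney and 405.0 to 893.9 CPM in spleen. The 9 myeloid markers summed to 83.9 to 152 CPM in kidney and 102 to 131 CPM in spleen, and the 8 kidney tubule markers to at most 2.08 CPM in any block, with Aqp2 at 0. The targeted gene, Ezh2, averaged 69.5 ± 11.2 CPM (SD, n = 2) in KO against 132 ± 33.6 CPM (SD, n = 3) for WT kidney. In spleen it averaged 52.5 ± 1.60 CPM (SD, n = 2) in KO against 129 ± 52.3 CPM (SD, n = 3) for WT. The main naive-like cluster made up 51.6% and 36.0% of the spleen cells of KO1 and KO2 and 0.699% to 2.28% of those of the WT mice.

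The first comparison set kidney against spleen. The 3 NR4A genes were higher in kidney CD4+ T cells, Egr2 and Egr3 were lower, and Egr1 did not pass the test. Levels are CPM, UMIs of a gene scaled to the UMI total of its block, after TMM scaling of the per-mouse sums. Tests are edgeR quasi-likelihood fits over all genes with Benjamini-Hochberg adjustment, called at an adjusted p under 0.05. Of 11477 genes tested, 2632 (22.9%) were called, 1475 (12.9%) higher and 1157 (10.1%) lower in kidney. Among the 6 genes 5 were called, 3 higher and 2 lower.

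Nr4a3 stood at 601, 594, 503, 366 and 389 CPM in the kidneys of KO1, KO2, WT1, WT2 and WT3, and at 180, 154, 89.8, 57.8 and 90.5 CPM in their spleens. Every kidney lay above every spleen, as it or the reverse did for 15.1% of genes tested. The log2 fold change was 2.17 ± 0.16 (SE; edgeR adjusted p = 2.67e-05). Each mouse on its own showed a rise of 1.73 to 2.64 on the log2(CPM + 1) scale.

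Nr4a2, which in the nervous system is needed for dopamine neurons and in T cells is induced by receptor signals, stood at 433, 397, 475, 652 and 723 CPM in kidney and at 148, 168, 368, 292 and 385 CPM in spleen, in the same order of mice. The organs again did not overlap, although kidney KO2 at 397 CPM lay just above spleen WT3 at 385 CPM. The log2 fold change was 1.04 ± 0.15 (SE; edgeR adjusted p = 0.00102), with paired differences of 0.37 in WT1 to 1.54 in KO1.

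Nr4a1 stood at 826, 1029, 760, 465 and 586 CPM in kidney and at 747, 457, 224, 189 and 269 CPM in spleen. Here the organs overlapped, because the spleen of KO1 lay above the kidneys of WT2 and WT3. The level was higher in the kidney of every mouse, with a paired log2 difference of 0.14 in KO1 and 1.12 to 1.75 in the other 4 mice. The log2 fold change was 1.09 ± 0.21 (SE; edgeR adjusted p = 0.00453).

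Egr2 stood at 12.6, 6.55, 7.53, 5.62 and 8.99 CPM in kidney and at 21.2, 23.1, 45.5, 18.7 and 24.1 CPM in spleen. The kidneys all lay below the spleens, and the spleen of WT1 was the highest block. The log2 fold change was -1.72 ± 0.30 (SE; edgeR adjusted p = 0.00284). In UMIs this was 141 in the kidneys and 1036 in the spleens.

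Egr3, a close relative of Egr2 that shares several of its targets, rested on few UMIs. Its counts were 2, 1, 7, 5 and 3 in the kidneys and 30, 38, 36, 8 and 12 in the spleens. Pooled over mice, the kidney level was 0.251 of the spleen level (exact 95% interval 0.144 to 0.414, counting error only). The highest kidney block, 1.31 CPM, lay below the lowest spleen block, 1.47 CPM. The fit gave -1.58 ± 0.38 (SE; edgeR adjusted p = 0.0152), but the call was lost without KO1 (adjusted p = 0.0887) or without KO2 (adjusted p = 0.0673).

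Egr1, a zinc finger factor and a common marker of MAP kinase activity, stood at 167, 194, 164, 123 and 219 CPM in kidney and at 254, 126, 173, 172 and 207 CPM in spleen. Kidney was the higher organ in 2 of 5 mice, and the fit gave -0.12 ± 0.20 (SE; edgeR adjusted p = 0.705). With 5 paired mice an exact two-sided sign-flip test cannot go below 0.062. It gave that smallest value for each of the other 5 genes, among 18 such tests over mice, and 0.8125 for Egr1.

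**Figure D1:**
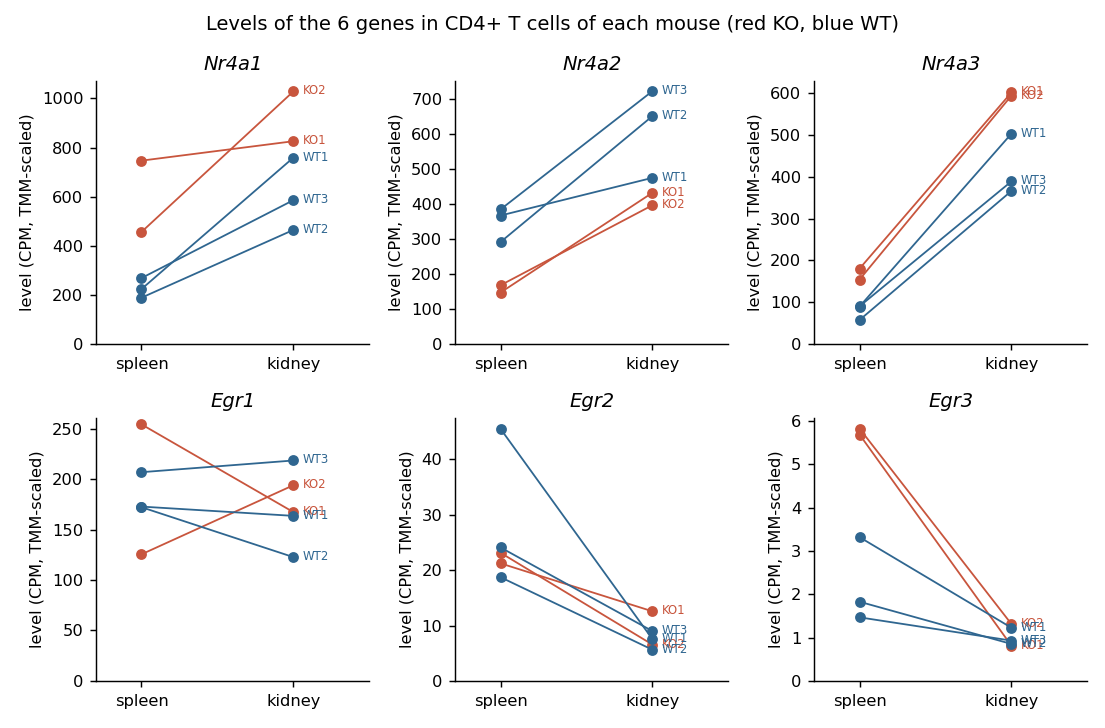
Level of each gene (CPM, TMM-scaled, axis from 0) in the spleen and kidney of each mouse, with 1 line per mouse, KO in red and WT in blue. All 5 lines rise from spleen to kidney for Nr4a1, Nr4a2 and Nr4a3, all 5 fall for Egr2 and Egr3, and those of Egr1 cross.

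Kidney and spleen of a mouse come from the same animal. With the mouse as a block the fit called 4082 genes instead of 2632, and the same 5 of the 6 genes passed, with log2 fold changes of 2.18 for Nr4a3, 1.04 for Nr4a2, 1.10 for Nr4a1, -1.72 for Egr2 and -1.55 for Egr3.

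Within the 3 WT mice, 8.09% of genes were called (887 of 10967). Nr4a3 rose by 2.40 ± 0.22 (SE; edgeR adjusted p = 0.00474), Nr4a1 by 1.41 ± 0.22 (adjusted p = 0.0167) and Nr4a2 by 0.82 ± 0.19 (adjusted p = 0.0449; 0.0506 without cycling-like cells). Egr2 fell by 2.03 (SE 0.38; adjusted p = 0.0280). With the mouse as a block, 3167 genes were called. Without WT2 or without WT3 no gene was called by edgeR in this comparison, so all 4 calls were lost, while the 4 log2 fold changes stayed between 1.45 and 1.57 for Nr4a1, 0.67 and 0.78 for Nr4a2, 2.31 and 2.56 for Nr4a3, and -2.30 and -2.09 for Egr2.

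Within the 2 KO mice, 12.1% of genes were called (1293 of 10713). Nr4a3 rose by 1.84 ± 0.12 (SE; edgeR adjusted p = 1.04e-05) and Nr4a2 by 1.40 ± 0.12 (adjusted p = 6.89e-05), while Nr4a1 was at 0.62 ± 0.20 (adjusted p = 0.0694; 0.0494 by DESeq2). Egr2 fell by 1.02 (SE 0.27; adjusted p = 0.0326) and Egr3 fell by 2.58 (SE 0.64; adjusted p = 0.0242). Egr3 in the KO kidneys was 3 UMIs against 68 in the spleens, a ratio of 0.144 (exact 95% interval 0.0290 to 0.440, counting error only). With the mouse as a block, neither kept its call (adjusted p = 0.0593 for Egr2 and 0.0608 for Egr3), and neither was called by DESeq2 (0.211 and 0.234). Without naive-like cells Nr4a1 rose by 1.31 in these mice (adjusted p = 3.35e-04). The genotypes were not shown to differ in their organ contrast. The test of that difference, the interaction term, called none of the 6 genes, with values of -0.79 ± 0.37 (SE) for Nr4a1, 0.57 ± 0.26 (SE) for Nr4a2 and -0.56 ± 0.29 (SE) for Nr4a3 (edgeR adjusted p = 1.00 for each, 0.9999 before rounding). Of 11845 genes it called 0 (0%), with 342 at an unadjusted p under 0.05 and 1 called by DESeq2.

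**Figure D2:**
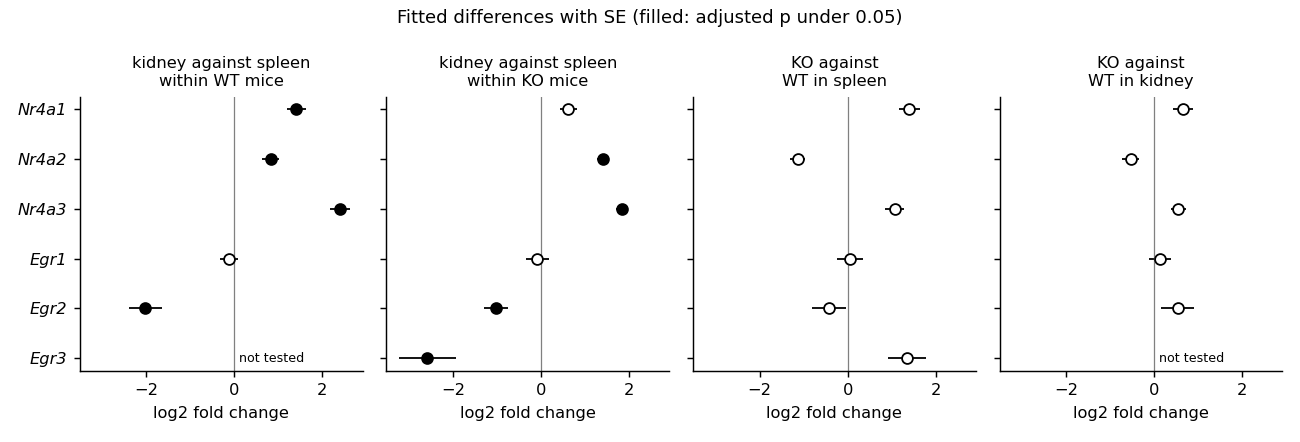
Fitted log2 fold changes of the 6 genes with their SE in 4 comparisons, filled where the adjusted p was under 0.05. The NR4A genes lie to the right and Egr2 to the left of 0 in both organ comparisons, while in the genotype comparisons Nr4a2 lies on the other side of 0 from Nr4a1 and Nr4a3.

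Other genes of receptor signalling gave a mixed picture in kidney against spleen. They and the genes below were taken from lists chosen with earlier results of these data known. Of all genes tested 22.9% were called in this comparison, 12.9% higher and 10.1% lower in kidney, and their median log2 fold change was -0.05. Of 16 genes of the early receptor response 3 rose and 2 fell (median 0.29). Il2, the T cell growth factor, rose by 2.60 ± 0.48 (SE; edgeR adjusted p = 0.00365), the costimulatory receptor Icos by 1.32 ± 0.28 (adjusted p = 0.00803) and the transcription factor Bhlhe40 by 1.16 ± 0.19 (adjusted p = 0.00202). Cd69, the early activation antigen that holds T cells in tissue, fell by 0.33 (SE 0.09; adjusted p = 0.0293) and Myc fell by 0.69 (SE 0.22; adjusted p = 0.0436). Nfatc1 at 0.48, Cd5 at -0.04 and Tnfrsf4 at 0.48 did not pass.

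Of the EGR partners, targets and feedback genes 14 of 15 were tested, 6 rose and 1 fell (median 0.68). The phosphatases that switch off MAP kinases were among those that rose, with Dusp5 at 2.08 ± 0.12 (SE; edgeR adjusted p = 4.60e-06), Dusp2 at 1.93 ± 0.21 (adjusted p = 1.98e-04) and Dusp4 at 1.10 ± 0.14 (adjusted p = 5.38e-04). Dusp5 stood at 599 ± 60.5 CPM (SD, n = 5) in kidney and 145 ± 41.7 CPM (SD, n = 5) in spleen. Cblb, an E3 ligase and EGR target that damps receptor signalling, rose by 0.99 ± 0.08 (SE; adjusted p = 3.06e-05). Ndrg1, a factor of T cell anergy, rose by 1.60 ± 0.24 (SE; adjusted p = 0.00136) and Fasl by 1.39 ± 0.27 (SE; adjusted p = 0.00446). Dgkz, a diacylglycerol kinase that ends the Ras signal, fell by 0.53 (SE 0.11; adjusted p = 0.00824). The EGR corepressor Nab1, at 0.52 (adjusted p = 0.0825), the kinase Dgka, at -0.04, and the ligase Itch, at 0.25, did not pass.

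Of 19 genes of the pathway upstream, 4 rose and 0 fell by edgeR (median 0.09, with 15 not called). This count is near the share of all genes called, 22.9%, so it does not set the pathway apart. The genes that rose were the MEF2 factors Mef2d, at 0.81 ± 0.13 (SE; edgeR adjusted p = 0.00169), and Mef2a, at 0.27 ± 0.09 (adjusted p = 0.0484), with Creb1 at 0.43 ± 0.08 (adjusted p = 0.00300) and Nfatc3 at 0.28 ± 0.07 (adjusted p = 0.0150). The kinases and adaptors Lat, Lck and Zap70 were at 0.09, -0.06 and -0.11 and did not pass.

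All 5 cyclic AMP targets of the list rose in kidney (median 1.18), where 12.9% of all genes tested rose. Since this list was chosen with earlier results of these data known, the count is a description and no independent support. Crem, the inducible repressor of CREB sites, stood at 246 ± 89.8 CPM (SD, n = 5) in kidney and 27.9 ± 6.78 CPM (SD, n = 5) in spleen, a log2 fold change of 3.14 ± 0.23 (SE; edgeR adjusted p = 2.41e-05). Pde4d rose by 1.46, Pde4b by 1.18, Per1 by 0.94 and Sik1 by 0.86, with adjusted p between 1.97e-04 and 0.00665.

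Of 20 AP-1 and other immediate early genes 7 rose and 4 fell (median 0.14), so the members of this class moved in both directions. Fos stood at 791 ± 241 CPM (SD, n = 5) in kidney and 1992 ± 710 CPM (SD, n = 5) in spleen, and fell by 1.37 (SE 0.22; edgeR adjusted p = 0.00179). Jun fell by 1.61 (SE 0.38; adjusted p = 0.0126) and the phosphatase Dusp1 by 0.99 (SE 0.17; adjusted p = 0.00251). Ppp1r15a fell by 0.38 (SE 0.12; adjusted p = 0.0407). Fosl2 rose by 2.94 ± 0.21 (SE; adjusted p = 2.41e-05), Atf3 by 1.60, Klf4 by 1.49, Rgs1 by 1.47, Csrnp1 by 1.08, Fosb by 1.03 and Jund by 0.83.

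This class is also the one that tissue dissociation is known to raise. Its summed level was 17097 to 22777 CPM in the kidney blocks and 15273 to 22970 CPM in the spleen blocks. Of 12 heat shock genes 2 rose (Hspa5 and Dnaja1) and 1 fell (Hspb1), where 22.9% of all genes were called. The most abundant of the others, Hsp90ab1 and Hspa8, were at 0.27 ± 0.16 (SE; edgeR adjusted p = 0.242) and 0.49 ± 0.22 (SE; adjusted p = 0.140). Within KO mice alone 6 rose (Hsp90aa1, Hsp90ab1, Hspa8, Hspa5, Dnaja1 and Hspd1) and 0 fell by edgeR (median 0.50, with 12.1% of all genes called). Within WT mice 1 rose (Hspa5) and 0 fell by edgeR (median 0.03, with 8.09% of all genes called). The summed heat shock level was 9548 to 14839 CPM in the kidney blocks and 5337 to 15499 CPM in the spleen blocks. The part of dissociation in the NR4A difference was not tested. Of 10 inhibitory receptors and Tox, genes that NR4A factors are known to raise in exhausted T cells, 1 fell (Cd160) and 0 rose by edgeR, with 9 not called, among them Ctla4 at 0.08, Tox at -0.45 and Tigit at 0.39.

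**Figure D3:**
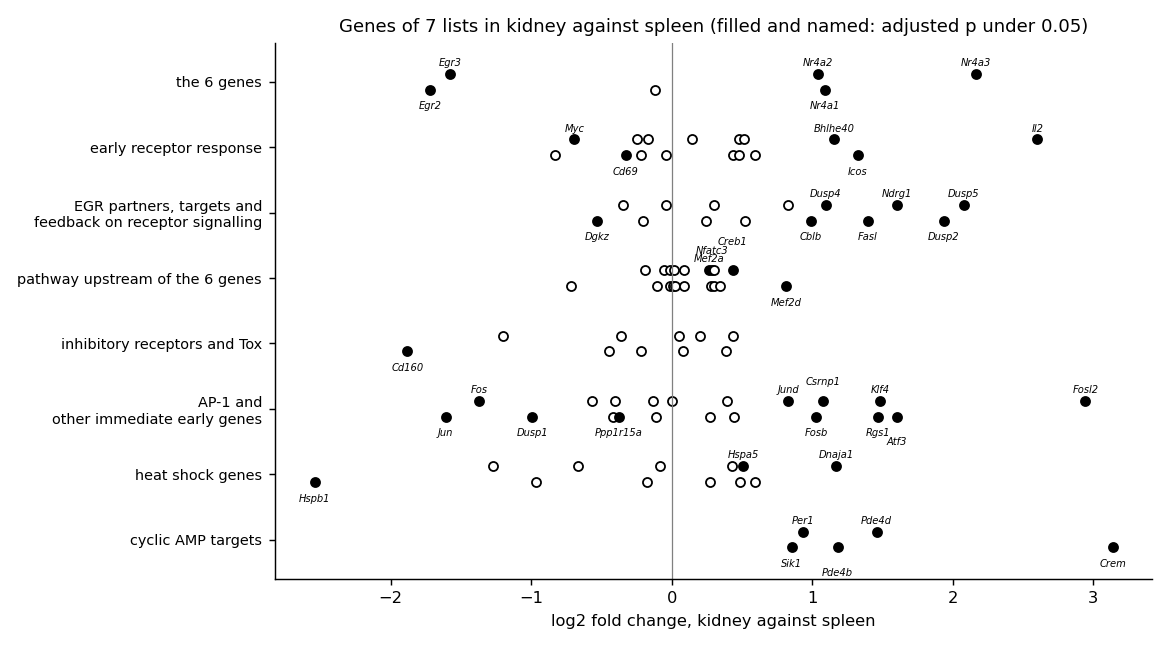
Log2 fold change of each tested gene of the 6 and of 7 lists in kidney against spleen, filled and named where the adjusted p was under 0.05. The 3 NR4A genes and all 5 cyclic AMP targets lie to the right of 0, Egr2, Egr3, Fos and Jun lie to the left, and both sides hold called genes in most lists.

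The genotype comparison asked how loss of Ezh2 in CD4+ T cells bears on these genes. In spleen Nr4a1, Nr4a3 and Egr3 were higher and Nr4a2 was lower in both KO mice than in all 3 WT mice, but none passed the test. Of 11667 genes 32 (0.274%) were called in spleen, and 37.9% of genes had both KO mice on one side of all WT mice. For Nr4a1 the KO mice averaged 602 ± 205 CPM (SD, n = 2) against 228 ± 40.0 CPM (SD, n = 3), or 1.40 ± 0.25 on the log2 scale (SE; edgeR adjusted p = 0.0897). Nr4a3 was at 167 ± 18.5 CPM (SD, n = 2) and 79.4 ± 18.7 CPM (SD, n = 3), or 1.07 ± 0.22 (SE; adjusted p = 0.113). Nr4a2 was at 158 ± 14.7 CPM (SD, n = 2) and 348 ± 49.5 CPM (SD, n = 3), or -1.14 ± 0.16 (SE; adjusted p = 0.0656).

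Egr3 averaged 5.75 ± 0.10 CPM (SD, n = 2) in KO spleen against 2.20 ± 0.98 CPM (SD, n = 3) for WT, or 1.35 ± 0.43 (SE; edgeR adjusted p = 0.213). Egr2 at -0.42 ± 0.38 (SE) and Egr1 at 0.05 ± 0.30 (SE) overlapped between the genotypes. The 3 NR4A differences passed with DESeq2 (adjusted p = 2.57e-05 for Nr4a1, 8.83e-08 for Nr4a2 and 0.00131 for Nr4a3), with no filter on low counts (0.00521, 0.00436 and 0.0167) and without WT1 (0.00857, 0.00322 and 0.00746). Calls were more common under these settings over all genes too, at 5.15% with DESeq2 (650 genes), 2.22% with no filter (440 genes) and 20.5% without WT1 (2310 genes). Without WT1 Egr3 passed too (1.82; adjusted p = 0.0135). An exact two-sided permutation test of 2 against 3 mice cannot go below 0.1 and gave 0.1 for each NR4A gene in spleen.

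Naive-like cells, resting recirculating T cells, moved with this difference, and so did cytotoxic-like cells. The latter made up 1.59% and 4.37% of the KO spleens and 11.0%, 64.4% and 50.7% of the spleens of WT1, WT2 and WT3, and their markers summed to 1526 to 2456 CPM in KO and 5576 to 33094 CPM in WT spleen. Their median spleen levels were 209 CPM of Nr4a1, 67.7 CPM of Nr4a3 and 520 CPM of Nr4a2, and their part in the difference was not tested. In spleen the Nr4a1 level of naive-like cells was 470 to 1022 CPM in the 3 blocks with at least 30 such cells. The Nr4a2 level of naive-like cells there was 35.8 to 40.3 CPM (CPM by library total). That Nr4a2 level depends on how the cells are defined: its mean was 37.7 ± 2.31 CPM (SD, n = 3) in the clusters and 195 ± 118 CPM (SD) in all spleen cells with a UMI of Igfbp4 or Ccr7. With naive-like cells left out, spleen Nr4a1 stood at 464 and 322 CPM in KO1 and KO2 and at 250, 198 and 272 CPM in WT1, WT2 and WT3. Spleen Nr4a2 stood at 270 and 267 CPM in the KO mice and at 429, 319 and 399 CPM in the WT mice. The log2 fold changes became 0.63 for Nr4a1 (edgeR adjusted p = 0.530), -0.59 for Nr4a2 (adjusted p = 0.459), 0.94 for Nr4a3 (adjusted p = 0.436) and 0.92 for Egr3 (adjusted p = 0.636). The order of the genotypes held for Nr4a1, Nr4a2 and Nr4a3 but not for Egr3, which stood at 2.82 CPM (7 UMIs) in KO1, below 3.88 CPM (36 UMIs) in WT1.

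In kidney the same 3 genes lay on the same sides with smaller differences. For Nr4a1 the KO mice averaged 927 ± 143 CPM (SD, n = 2) against 604 ± 148 CPM (SD, n = 3) for WT (log2 fold change 0.65 ± 0.22 SE; edgeR adjusted p = 0.388; 0.0488 with no filter on low counts). Nr4a3 was at 597 ± 5.35 CPM (SD, n = 2) and 419 ± 73.3 CPM (SD, n = 3) (0.54 ± 0.17 SE; adjusted p = 0.368). Nr4a2 was at 415 ± 25.2 CPM (SD, n = 2) and 617 ± 127 CPM (SD, n = 3) (-0.54 ± 0.20 SE; adjusted p = 0.404). The genotypes did not overlap for any of the 3, as for 32.1% of genes tested. Egr1 was at 0.13 ± 0.25 (SE) and Egr2 at 0.53 ± 0.38 (SE), and Egr3 was below the filter on low counts.

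Of 10251 genes edgeR called 0 (0%) in kidney, with 1120 at an unadjusted p under 0.05, 79 called by DESeq2, 502 (2.79%) with no filter and 1303 (13.0%) without WT1. Without WT1 Nr4a1 (0.85; adjusted p = 0.00630), Nr4a2 (-0.69; adjusted p = 0.00423) and Nr4a3 (0.70; adjusted p = 0.00317) were called as well. WT1 was the WT mouse nearest to the KO mice for these 3 genes in kidney. In neither organ did edgeR call a tested gene of the 7 lists.

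Cells were grouped by clustering without the 6 genes, and clusters were named from marker genes where these allowed it. The unnamed clusters that matter here were cluster 1 (led by Esm1 and Grb7, with 2029 kidney cells), cluster 2 (led by Ifitm1, Ramp3 and Fosl2, with 1710 kidney cells), cluster 5 (Gzmm and Samd3), cluster 7 (Phactr1 and Ptprm), cluster 8 (Ifitm1 and Dtx1) and cluster 9 (Il17f, with a low median of 1695 UMIs per cell). Levels below are CPM by library total over blocks with at least 30 cells, described without a test unless one is named. Where the blocks of cell groups do not overlap, the share of all genes that do the same was not computed.

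The NR4A genes had different orders over the cell groups. In spleen Nr4a1 had a median of 735 CPM in naive-like cells (470 to 1022, 3 blocks), followed by 409 in cluster 8, 360 in regulatory T-like cells, 322 in cluster 9, 278 in cluster 5, 273 in cluster 7, 265 in follicular helper-like cells, 209 in cytotoxic-like cells and 119 in cycling-like cells. Each of these overlapped its neighbour in this order. Nr4a2 had another order, with 747 CPM in cluster 9, 722 in cluster 7, 520 in cytotoxic-like cells, 353 in cluster 5, 254 in regulatory T-like cells, 170 in cycling-like cells, 159 in follicular helper-like cells, 119 in cluster 8 and 37.1 in naive-like cells (35.8 to 40.3). The naive-like blocks lay below all blocks of cluster 8 (81.8 to 179), and the regulatory T-like blocks (204 to 266) lay above the cycling-like blocks (141 to 180). Other neighbours in this order overlapped.

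Nr4a3 in spleen was highest in cluster 9, at 466 CPM (253 to 913), then 159 in regulatory T-like cells, 150 in naive-like cells, 146 in cluster 8, 104 in follicular helper-like cells, 87.3 in cluster 7, 78.8 in cluster 5 and 67.7 in cytotoxic-like cells. The regulatory T-like blocks (128 to 172) lay below those of cluster 9. The cycling-like blocks, at 16.2 to 34.9 CPM, lay below the cytotoxic-like blocks (65.0 to 72.0), and the neighbours between overlapped. Egr1 was highest in cluster 7, at 335 CPM (309 to 376), and lowest in cycling-like cells at 43.9 CPM (39.0 to 85.5), each overlapping its neighbour, cluster 8 (132 to 354) and regulatory T-like cells (64.0 to 136).

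Egr2 stood out in cluster 7. Its median there was 112 CPM (97.0 to 165, 3 spleen blocks), above all blocks of the next groups, regulatory T-like cells at 32.6 CPM (24.0 to 49.8), cluster 9 at 32.2 CPM (0 to 59.1) and follicular helper-like cells at 29.6 CPM (26.8 to 60.5). Naive-like cells had the lowest median, 6.25 CPM (3.98 to 16.9). Cluster 7 held 7.83% of the spleen cells, 10.3% of all spleen UMIs and 38.0% of the spleen's Egr2 UMIs. It held 22.9% of the summed WT1 spleen cells, the block with the highest Egr2 level, against 1.53% to 2.58% in the other 4 spleens. Without cluster 7, the spleen level of Egr2 was 21.0 ± 4.22 CPM (SD, n = 5; 15.9 to 27.2) instead of 28.5 ± 13.2, and the kidney level 6.56 ± 3.08 CPM (SD, n = 5; 3.80 to 11.3) instead of 7.77 ± 2.47.

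In kidney, clusters 1 and 2 held 42.3% and 35.7% of the cells, and they were almost absent from the spleen, with 5 and 32 cells. The organ fold changes over all cells therefore compare largely different clusters, and the tests inside cell groups leave out most kidney cells. Cluster 1, mostly from WT2 and WT3, had a median of 818 CPM of Nr4a2 (710 to 1023, 3 blocks) and 499 CPM of Nr4a1 (418 to 529). Cluster 2, mostly from KO1, KO2 and WT1, had 324 CPM of Nr4a2 (289 to 410, 5 blocks) and 843 CPM of Nr4a1 (548 to 1025). The blocks of cluster 1 were all WT and those of cluster 2 came from both genotypes, so cluster and genotype are partly mixed here. Nr4a3 was at 383 CPM in cluster 1 (346 to 395) and 493 CPM in cluster 2 (425 to 670). Naive-like kidney cells had the highest Nr4a1 level, 1091 CPM (925 to 1257, 2 blocks), and cluster 9 the lowest, 335 CPM (307 to 565).

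**Figure D4:**
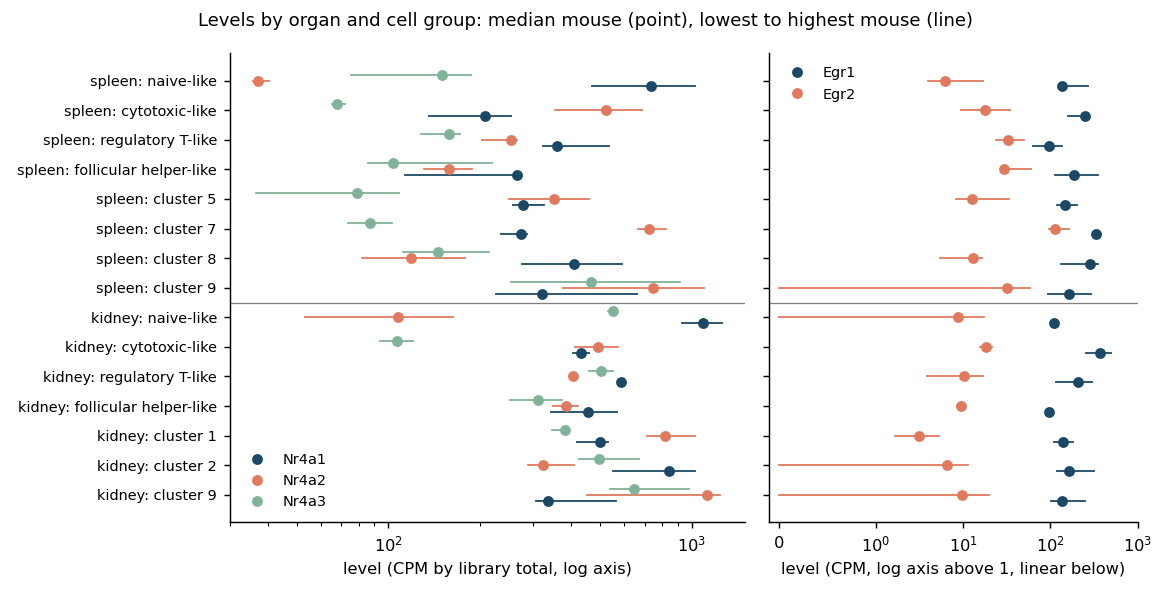
Median (point) and lowest to highest block (line) of the level in each organ and cell group, in CPM by library total, for NR4A genes (left, log axis) and Egr1 and Egr2 (right, log above 1 and linear below). Among spleen groups the median of Nr4a1 is highest and that of Nr4a2 lowest in naive-like cells, and Egr2 is highest in cluster 7. The Nr4a1 median is higher in naive-like kidney cells (KO1 and KO2) than in those of spleen (KO1, KO2 and WT1), with overlapping ranges.

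The organ difference was then tested inside cell groups. Follicular helper-like cells, which give help to B cells, came from 2 kidney and 3 spleen blocks. There Nr4a1 rose by 1.44 ± 0.29 (SE; edgeR adjusted p = 0.00343), Nr4a2 by 1.45 ± 0.21 (adjusted p = 1.37e-04) and Nr4a3 by 1.48 ± 0.30 (adjusted p = 0.00319), where 4.19% of genes were called. Nr4a1 was at 345 CPM in kidney and 266 CPM in spleen in KO1, and at 566 and 113 CPM in WT1. The KO2 spleen, without a kidney block, stood at 265 CPM. In regulatory T-like cells (2 kidney and 4 spleen blocks, 3.04% of genes called) Nr4a3 rose by 1.83 ± 0.16 (SE; adjusted p = 7.62e-07), Nr4a2 by 0.86 ± 0.16 (adjusted p = 0.00265) and Nr4a1 by 0.72 ± 0.18 (adjusted p = 0.0256). Egr2 was at -1.64 ± 0.55 (SE; adjusted p = 0.108) in the former and -1.92 ± 0.62 (SE; adjusted p = 0.111) in the latter.

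In naive-like cells (2 kidney and 3 spleen blocks, 10.7% of genes called) Nr4a3 rose by 1.92 ± 0.23 (SE; edgeR adjusted p = 2.84e-04) and Nr4a2 by 1.78 ± 0.32 (adjusted p = 0.00397), while Nr4a1 was at 0.58 ± 0.24 (adjusted p = 0.142). Most of these cells were cluster 13 in kidney and cluster 3 in spleen. The kidney blocks were KO1 and KO2 and the spleen blocks KO1, KO2 and WT1. The fit had no genotype covariate, so genotype is mixed into this organ difference. Nr4a3 was at 75.6 CPM in the WT1 spleen and at 188 and 150 CPM in the KO1 and KO2 spleens. The KO1 and KO2 kidneys stood at 530 and 569 CPM. In cytotoxic-like cells (2 kidney and 4 spleen blocks, 0.184% of genes called) none of the members passed, with Nr4a1 at 1.07 ± 0.22 (SE; adjusted p = 0.0882), Nr4a3 at 0.72 ± 0.24 (adjusted p = 0.341) and Nr4a2 at -0.01 ± 0.25 (adjusted p = 1.00). The kidney blocks of this group were WT2 and WT3 and its spleen blocks KO2, WT1, WT2 and WT3, again without a genotype covariate. The kidney levels of this group also turned on its definition: with all kidney cells that had a Gzmb UMI in its place, mean Nr4a3 was 305 instead of 107 CPM, Egr1 123 instead of 375 CPM and Egr2 2.90 instead of 18.6 CPM. In cluster 9 (3 kidney and 5 spleen blocks, 0.593% of genes called) Nr4a1 was at 0.09 ± 0.36 (SE), Nr4a2 at 0.35 ± 0.38 and Nr4a3 at 0.39 ± 0.37, with none called. Its kidney blocks were all WT, its spleen blocks came from both genotypes, and the fit had no genotype covariate. Nr4a3 was at 667 and 913 CPM in the KO1 and KO2 spleens and at 466, 253 and 411 CPM in the WT spleens. The WT kidneys stood at 981, 643.5 and 536 CPM. Nr4a2 was at 378 and 457 CPM in the KO spleens, 746.5 to 1097 CPM in the WT spleens and 452 to 1239 CPM in the WT kidneys. The groups were not tested against each other. Over the 14 pairs of a mouse and a group with at least 30 cells in both organs, the kidney was the higher organ in 14 for Nr4a3, 12 for Nr4a1, 11 for Nr4a2, 8 for Egr1, 3 for Egr2 and 3 for Egr3. The spleen was the higher organ in 11 for Egr2 and 7 for Egr3, which had 0 UMIs in both organs in the other 4. The 14 pairs came from 5 mice and 8 groups, so they are not 14 replicates. The share of all genes with like counts was not computed.

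Genotypes were compared inside the groups with enough blocks, and no member was called. In regulatory T-like spleen cells (0.147% of genes called) Nr4a1, Nr4a2 and Nr4a3 were at 0.24 ± 0.19, 0.14 ± 0.17 and 0.15 ± 0.18 (SE) in KO against WT. In cluster 8 of the spleen (0.0584% called) Nr4a2 was at 0.95 ± 0.20 (SE; edgeR adjusted p = 0.0978) and Nr4a1 at 0.45 ± 0.22 (adjusted p = 0.705). In cluster 9 of the spleen (0.279% called) Nr4a2 was at -1.16 ± 0.31 (SE; adjusted p = 0.139) and Nr4a3 at 1.07 ± 0.32 (adjusted p = 0.190). In cluster 5 of the spleen edgeR called 0 of 5558 genes (0%, with 457 at an unadjusted p under 0.05; DESeq2 was not run within groups), and Nr4a3 was at -0.98 ± 0.39 (SE; adjusted p = 0.586). In cluster 2 of the kidney (0.0704% called) Nr4a3 was at 0.43 ± 0.14 (SE; adjusted p = 0.563) and Nr4a1 at 0.29 ± 0.18 (adjusted p = 0.893). Of these 4 spleen groups, Nr4a2 had a negative value in cluster 9 and a positive value in the other three, with cluster 5 at 0.50 ± 0.22 (SE; adjusted p = 0.593).

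Over all cells of a block, those with an Nr4a1 UMI also had more of Nr4a3 and Egr1. This pools cell groups that differ in their levels of these genes (above), and the part of their mix was not tested. In spleen the Nr4a3 level in cells with an Nr4a1 UMI was 1.66 to 2.14 times (median 1.68) that in cells without, above 1 in 5 of 5 mice, and in kidney 1.11 to 1.88 times (median 1.33), also in 5 of 5. Egr1 was 1.36 to 2.16 times as high in spleen (median 1.78) and 1.09 to 3.06 times in kidney (median 1.53). Egr2 was above 1 in 4 of 5 spleens, with a median of 1.57, and Egr3 in 5 of 5, with 98 UMIs in cells with an Nr4a1 UMI and 26 in the others. For Nr4a2 the median ratio was 1.02 in spleen (0.71 to 1.34) and 1.00 in kidney (0.88 to 1.55), so it lay on both sides of 1. The control genes had median ratios of 0.85 to 1.09 in spleen and 0.87 to 1.10 in kidney (Cd3e, Ptprc, B2m and Actb). Single mice strayed further, with Cd3e below 1 in every block (down to 0.71) and Actb above 1 in all 5 kidneys (1.03 to 1.32). That Actb range overlaps the kidney ranges of Nr4a3 and Egr1. Cells with an Nr4a1 UMI were deeper, for example a median of 3806 UMIs against 3243 in the spleen of KO1. Among cells of 2000 to 5000 UMIs the median ratio for Nr4a3 was 2.03 in spleen and 1.62 in kidney, and for Nr4a2 1.19 and 1.11. For Egr1 it was 1.87 in spleen (above 1 in 5 of 5 mice) and 1.64 in kidney, where it ran from 0.86 to 3.32 and was above 1 in 4 of 5.

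**Figure D5:**
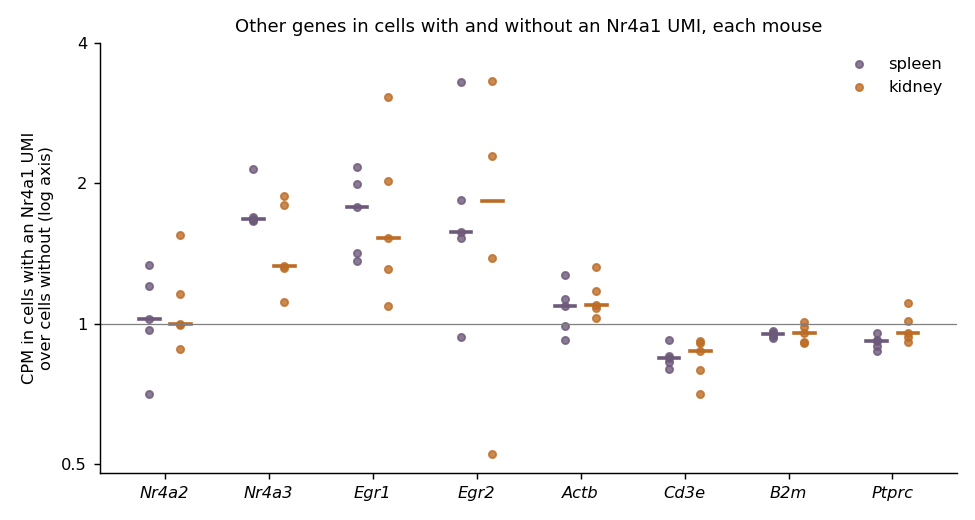
Level of other genes (CPM) in cells with an Nr4a1 UMI over cells without, for each mouse (points) with the median (bar), spleen and kidney apart, on a log axis. Nr4a3 and Egr1 lie above 1 in all 10 blocks, Nr4a2 lies on both sides of 1, and the medians of the control genes lie between 0.85 and 1.10. The kidney of KO2 has no Egr2 ratio, since its cells without an Nr4a1 UMI had 0 Egr2 UMIs.

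Across the 14 clusters of at least 100 cells, over both organs, the genes whose log2(CPM + 1) was most like that of Nr4a1 among 6293 genes were Rrad (Pearson r = 0.926), Acot2 (0.910), Maff (0.909), Snhg15 (0.891) and Bambi (0.876). Nr4a3 correlated with Nr4a1 at 0.668, Egr1 at -0.153, Egr2 at -0.463 and Nr4a2 at -0.478. Most like Egr2 were Rab12 (0.856), Hibadh (0.813), Abhd17c (0.811), Pml (0.800) and Cyth3 (0.792), with Egr1 at 0.494. These are descriptions over clusters that share mice and libraries and differ in depth, with median UMIs per cell from 1297 to 9919. The 14 include cluster 11 (CD8 transcripts) and cluster 12 (myeloid, B cell and tubule transcripts), which were left out of the sums.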

How the data were processed

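CD4+ T cells of both organs were profiled by 5′ single-cell RNA sequencing with TotalSeq-C antibody tags. The authors deposited raw UMI counts per gene and cell as 1 matrix per organ. The submitters' processing notes name the tools Cell Ranger 7.1.0 and Seurat 5.0.1 with mm10 (GRCm38). Each matrix joins 9 blocks of barcodes. The 10 blocks of the first day were each led by 1 tag in at least 99.5% of cells and were given to mice by the order of the deposited tag key, and 13 cells with a different leading tag were dropped. The 8 blocks of the second day hold largely the same cells under several mice and entered no comparison.

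Of 13368 first-day cells 13337 were kept (minimum 200 genes, mitochondrial UMIs below 10%). Tags were the sole guard against doublets. Cells were clustered with Leiden (igraph 0.11.9; 2000 variable genes, 30 components, 15 neighbours, resolution 1, seed 0) without 214 member, list and marker genes and without receptor and immunoglobulin segment genes. A cluster was named "-like" where a marker class was raised (mean log2 fold from 1, 3 or more raised markers, 1 in the 10 leading genes), a rule set after the counts were seen. Names are rebuilt and may differ from the study's. Clusters 11 (CD8 transcripts) and 12 (myeloid, B cell and tubule transcripts), 394 cells, were left out of the sums.

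Sums per mouse and organ were compared by edgeR 4.0.16 under R 4.3.3 (quasi-likelihood, TMM, filterByExpr, Benjamini-Hochberg at 0.05). SE is the fold change divided by the square root of the F statistic. Kidney against spleen over all mice had genotype as a covariate. Inside a cell group, genotype was a covariate only where both genotypes had blocks in both organs. The mouse was a block in an alternative, since the tag key gives both organs of 1 animal. The organs' deviations from the genotype means correlated at 0.667, 0.639 and 0.491 in WT1, WT2 and WT3 and at 0.005 in the KO pair, over 6522 genes. Alternatives also used DESeq2 1.42.0, no filter, each mouse left out, other cells summed, gates on single genes and at least 50 cells. In data simulated for kidney against spleen, 78% of genes changed 2-fold and 100% of those changed 4-fold were called, and for KO against WT in spleen 21% and 94%. The 6 genes, the 7 lists and the markers were chosen with earlier results of these data known. Named genes are the 6, Ezh2, from each list those called plus at most 4 others of the highest level, and the 5 most like Nr4a1 and Egr2. Genes that lead a cluster and the control genes were named beside the rule. In cells with and without an Nr4a1 UMI, Nr4a1's own UMIs stayed out of the totals. Intervals are exact and cover counting error only. Sequences are from RefSeq tables of GRCm38.p6, and the motifs were chosen after the organ difference was seen.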

Additional observations from a re-analysis of the deposited data

Results flagged for a closer look

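The cells of the second day entered no comparison, because the same cells stand under several mice and both organs. In the largest kidney block of that day, 2399 cells and 9608748 UMIs, all 6 genes were detected above the limit that a count of 0 allows. By library total Nr4a1 was at 866 CPM (exact 95% Poisson interval 848 to 885, counting error only), Nr4a2 at 325 CPM (314 to 337), Nr4a3 at 446 CPM (433 to 460), Egr1 at 241 CPM (231 to 251), Egr2 at 18.0 CPM (15.4 to 20.9) and Egr3 at 2.50 CPM (1.60 to 3.72). Which mouse and organ these cells came from was not settled.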

How the results depend on the processing

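The mouse as replicate block raised the number of genes called from 2632 to 4082 in kidney against spleen, from 887 to 3167 within WT mice and from 0 to 2 for the difference of the KO effect between organs. Beside the calls of Egr2 and Egr3 within KO mice, it changed no call of the 6 genes. For the genotype, DESeq2 called 79 genes in kidney and 650 in spleen, and it called 1 for the difference between organs and 693 within KO mice. With no filter on low counts, the genotype fits called 502 genes in kidney and 440 in spleen, and without naive-like cells edgeR called 0 in spleen. With at least 50 cells per block, 1 gene was called in cluster 9 in either comparison. With each mouse left out in turn, the genes called ran from 0 to 1303 for KO against WT in kidney, from 0 to 2310 in spleen, from 0 to 3 for the difference between organs, from 1447 to 2887 in kidney against spleen and from 0 to 1102 within WT mice. The highest of each came without WT1, and without any other mouse 0 were called in spleen. In kidney against spleen Nr4a1, Nr4a2, Nr4a3 and Egr2 kept their calls with each mouse left out.

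The sign turned mostly for Egr1, which was never called. Without naive-like cells Egr1 was at -0.19 for KO against WT in spleen, 0.01 in kidney against spleen and 0.20 within KO mice. It was at -0.036 in spleen without cycling-like cells, at -0.036 for the difference between organs with all cells, and at -0.16 for KO against WT in cluster 9 with at least 50 cells. With each mouse left out it ran from -0.057 to 0.36 for KO against WT in kidney, from -0.55 to 0.46 in spleen, from -0.47 to 0.73 for the difference, from -0.25 to 0.040 in kidney against spleen and from -0.26 to 0.0095 within WT mice. Egr2 likewise ran from -0.13 to 0.80 for KO against WT in kidney and from -0.66 to 0.028 in spleen. With gates on single marker genes in place of named clusters, 32 of 54 levels by cell group moved by more than the spread between mice. The cause was not tested. Leaving out a mouse within KO was not run, since 1 mouse per organ leaves no replicate. Depth limits Egr3 most, with 18 kidney UMIs in all, and p-values measure the spread between 2 or 3 mice per genotype.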
